A study of Mus musculus with 6 samples.

Results

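The genes described here are 10 markers of tissue macrophages: Csf1r, Cx3cr1, Adgre1, Cd68, Aif1, Cd163, Mrc1, Lyve1, Trem2 and Cd14. They were taken as a list by symbol, and each matched 1 Ensembl gene ID among the 55335 genes of the deposited expression table. Their levels were measured by RNA-seq of polyadenylated RNA in lysates of mouse sciatic nerve at postnatal day 14. Control nerves (n = 3) carried the genotype RhoAfl/fl, and icKO nerves (n = 3) RhoAfl/fl ChATCreERT2+, so that both groups carried the floxed alleles and the Cre was present in the icKO group. The Cre is driven from the choline acetyltransferase gene, which is active in cholinergic neurons such as motoneurons. The labels give neither the time of induction, nor the sex of the mice, nor whether control mice received the inducing drug. Nor do they say that each library is its own animal, so p-values measure the spread between these samples, which may be technical.

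Macrophages of peripheral nerve live inside the endoneurium, among the fibres, and in the outer sheaths and around vessels. They depend on signalling through the receptor CSF1R, take up debris and dying cells, present antigen, and clear myelin after injury. Cx3cr1 and Trem2 are usually associated with the endoneurial cells, and Lyve1, Mrc1 and Cd163 with the sheath and perivascular cells. A lysate pools all cells of the nerve, and fewer macrophages cannot be told apart from less RNA of each marker per macrophage.

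Levels are FPKM, fragments normalized to transcript length and to the fragments of the library, and are given in the order of replicates 1, 2 and 3. The depth, estimated from the smallest steps of these values, was 17200000 to 20600000 fragments per library. Muscle transcripts set libraries apart. The summed level of 6 skeletal muscle markers was 895 FPKM in control replicate 1 and 1136 FPKM in icKO replicate 3. It was 174 and 235 FPKM in control replicates 2 and 3, against 5.23 and 16.0 FPKM in icKO replicates 1 and 2. Control replicate 2 also differed in sex from the rest, with Xist at 46.1 FPKM against at most 0.0282 FPKM elsewhere. Rhoa, the targeted gene, was at 36.5, 39.0 and 38.0 FPKM in controls against 36.4, 33.6 and 33.2 FPKM in icKO nerves. Of 4 T cell markers, the 3 genes of the CD3 complex reached at most 0.0587 FPKM in any library. The T cell receptor gene Trac measured 0.644, 0.945 and 1.10 FPKM in controls against 0.238, 0.299 and 0.0853 FPKM in icKO nerves, on about 1 to 15 fragments, and was lower in a fit with no filter on low values (limma, Benjamini-Hochberg adjusted p = 0.0172).

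Over all 6 libraries, none of the macrophage markers passed the test, and most were lower on average in icKO nerves. The mean was lower in icKO nerves for 8 of the 10 genes and higher for Cd163 and Trem2. Control replicate 1 was the lowest of the 3 controls for all 10 genes, as it was for 46.4% of all tested genes, and it lay below all 3 icKO libraries for 6 of the 10. Among the 8 members with a mean of at least 1 FPKM, which were tested with limma on log2(FPKM + 1), 0 had a Benjamini-Hochberg adjusted p under 0.05, in data where 42.9% of all 12860 tested genes did. Only Lyve1 had an unadjusted p under 0.05. The median difference of the 8 was -0.45 on the log2(FPKM + 1) scale, where the median over all tested genes was -0.01. Values of the groups overlapped for each of the 8, while 57.2% of all tested genes had groups that did not overlap, 28.9% with icKO lower and 28.4% with icKO higher. Trem2 and Aif1, with means under 1 FPKM, were left out of the test by the filter on low values.

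**Figure D1:**
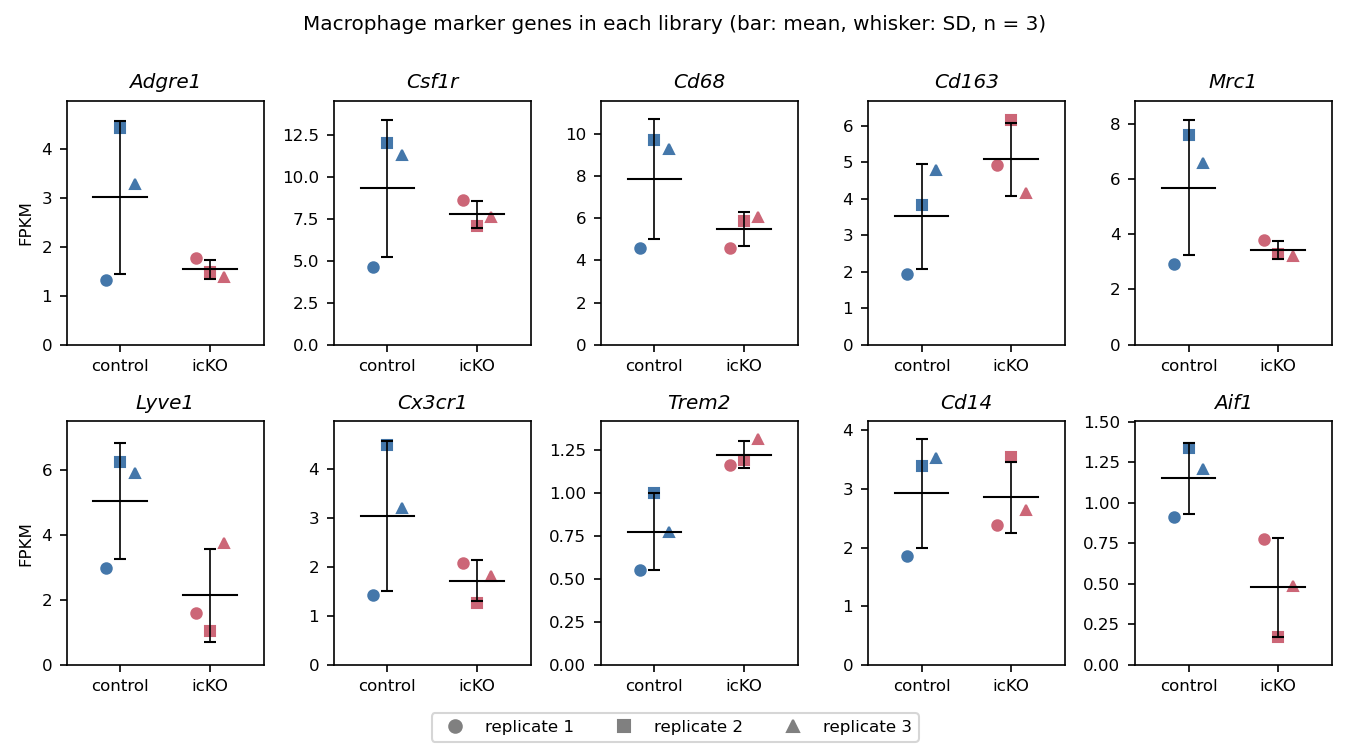
FPKM of each of the 10 macrophage markers (vertical axes, each from 0) in the 3 control and 3 icKO libraries, with marker shapes for the replicate number, a bar for the mean and a whisker for the SD. Control replicate 1 (blue circle) lies below the other 2 controls in all 10 panels.

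Like all 10 markers, the receptor genes Csf1r, Cx3cr1 and Adgre1 were lower in control replicate 1 than in both other controls. Csf1r (ENSMUSG00000024621), the receptor for the survival factors CSF1 and IL-34, measured 4.64, 12.03 and 11.3 FPKM in controls against 8.61, 7.05 and 7.63 FPKM in icKO nerves. The icKO libraries therefore lay between control replicate 1 and the other controls. The difference did not pass the test (log2 difference -0.15, SE 0.31, limma, Benjamini-Hochberg adjusted p = 0.731). Cx3cr1 (ENSMUSG00000052336), the receptor for the chemokine fractalkine, measured 1.44, 4.49 and 3.22 FPKM in controls against 2.09, 1.26 and 1.82 FPKM in icKO nerves. Adgre1 (ENSMUSG00000004730), which encodes the adhesion receptor known as F4/80, measured 1.33, 4.42 and 3.28 FPKM in controls against 1.76, 1.47 and 1.38 FPKM in icKO nerves. For Adgre1 the 3 icKO values were close together and just above control replicate 1. The differences of Cx3cr1 and Adgre1 were -0.51 (SE 0.30) and -0.58 (SE 0.30), with adjusted p = 0.205 and 0.157 in limma. In the annotation, exons of Csf1r overlap the gene Hmgxb3 and those of Cx3cr1 an antisense gene on the other strand, and no source used here says whether the counting used strand.

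The intracellular markers were both lower on average in icKO nerves. Cd68 (ENSMUSG00000018774), a glycoprotein of late endosomes and lysosomes, measured 4.59, 9.73 and 9.27 FPKM in controls against 4.57, 5.86 and 6.07 FPKM in icKO nerves, with the lowest values of both groups nearly equal. Its difference was -0.40 (SE 0.26, limma adjusted p = 0.249). Aif1 (ENSMUSG00000024397), the actin-bundling protein also called Iba1, measured 0.911, 1.34 and 1.21 FPKM in controls against 0.776, 0.171 and 0.487 FPKM in icKO nerves. All 3 icKO values of Aif1 lay below all 3 controls, but they rest on few reads, about 3 to 23 fragments per library at the estimated depth. In a fit with no filter, in which 20.0% of 30465 genes passed (10.3% lower and 9.62% higher), Aif1 differed by -0.56 (SE 0.18, limma adjusted p = 0.0799).

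Among the scavenger and uptake receptors of sheath macrophages, differences pointed both ways. Mrc1 (ENSMUSG00000026712), the mannose receptor, measured 2.93, 7.59 and 6.57 FPKM in controls against 3.81, 3.27 and 3.23 FPKM in icKO nerves (log2 difference -0.52, SE 0.28, limma adjusted p = 0.179). Its icKO values were within a narrow range just above control replicate 1. Cd163 (ENSMUSG00000008845), which takes up complexes of haemoglobin and haptoglobin, measured 1.94, 3.82 and 4.78 FPKM in controls against 4.93, 6.15 and 4.17 FPKM in icKO nerves. It was thus the tested member with the largest difference upward, 0.47 (SE 0.26, limma adjusted p = 0.179), with a single icKO library, replicate 3, inside the control range. Lyve1 (ENSMUSG00000030787), a hyaluronan receptor, measured 2.99, 6.25 and 5.91 FPKM in controls against 1.61, 1.06 and 3.77 FPKM in icKO nerves. It had the largest difference of the tested members, -0.99 (SE 0.36, limma adjusted p = 0.0633), and icKO replicate 3 lay above control replicate 1.

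Lyve1 is also a marker of lymphatic endothelium, and the other markers of those vessels, except Pdpn, were lower on average in icKO nerves. The lymphatic transcription factor Prox1 measured 0.192, 0.444 and 0.362 FPKM in controls against 0.0954, 0.0439 and 0.267 FPKM in icKO nerves. Mmrn1 measured 0.513, 1.91 and 1.54 FPKM in controls against 0.211, 0.0627 and 0.900 FPKM in icKO nerves. Both genes were under the filter, on about 3 to 30 and 5 to 177 fragments per library. In both, icKO replicate 3 was the highest icKO library, as it was for Lyve1, Flt4 and Ccl21a. It was not the highest for Reln (13.5, 16.3 and 11.3 FPKM) or Pdpn (10.9, 5.82 and 8.85 FPKM in icKO nerves). The summed level of 6 lymphatic markers was 43.9 to 70.1 FPKM in control and 22.9 to 26.1 FPKM in icKO libraries, of which Reln and Ccl21a hold most and passed the test as lower. The part of lymphatic vessels in the Lyve1 values was not tested.

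Of the sensing receptors, one had close group means and the other was higher on average in icKO nerves. Trem2 (ENSMUSG00000023992), a receptor for lipids and cell debris, measured 0.549, 0.995 and 0.772 FPKM in controls against 1.162, 1.19 and 1.31 FPKM in icKO nerves, the only member with all icKO values above all controls. This rests on about 10 to 27 fragments per library. In the fit with no filter its difference of 0.33 (SE 0.12) had a limma adjusted p of 0.119. Cd14 (ENSMUSG00000051439), which hands bacterial lipopolysaccharide to the receptor TLR4, measured 1.85, 3.39 and 3.53 FPKM in controls against 2.39, 3.54 and 2.63 FPKM in icKO nerves. The groups overlapped throughout (log2 difference -0.01, SE 0.21, limma adjusted p = 0.98), and the sign of this difference turned under quantile and median-of-ratios scaling.

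By level per transcript length, the order of the markers in control nerves ran from Csf1r (9.32 ± 4.07 FPKM, SD, n = 3) and Cd68 (7.87 ± 2.84 FPKM) through Mrc1, Lyve1, Cd163, Cx3cr1, Adgre1 and Cd14 to Aif1 and Trem2. Neighbours in this order differed by less than the larger of their SDs, except for the steps from Cd14 to Aif1 and from Aif1 to Trem2. In icKO nerves Csf1r (7.76 ± 0.79 FPKM) and Cd68 (5.50 ± 0.81 FPKM) again led, Cd163 came next at 5.08 ± 0.998 FPKM, and Aif1 was last at 0.478 ± 0.30 FPKM. In control nerves Cd163 had come after Mrc1 and Lyve1.

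With control replicate 1 left out, most of the markers were lower in icKO nerves. Its levels were 0.34 to 0.72 times the mean of the other 2 controls over the 10 genes, with a median of 0.47, where the median over all tested genes was 0.97. It was at least 1.5 times below both other controls for all 8 tested members, and for 3.98% of all tested genes. Without it, 6 of the 8 tested members fell (limma, Benjamini-Hochberg adjusted p under 0.05), namely Adgre1, Csf1r, Cd68, Mrc1, Lyve1 and Cx3cr1, where 36.2% of all tested genes passed and 19.5% were lower. Without it, icKO values lay below both remaining controls for those 6, and 66.1% of all tested genes had groups that did not overlap, 35.4% with icKO lower and 30.7% with icKO higher. The largest of these falls relative to its error was that of Mrc1, with a difference of -0.87 (SE 0.11, limma adjusted p = 0.00453). Adgre1 fell by 0.93 on the log2(FPKM + 1) scale (SE 0.14, limma adjusted p = 0.00687), with an icKO mean of 0.40 times that of control replicates 2 and 3. Csf1r fell by 0.53 (SE 0.11), Cd68 by 0.70 (SE 0.13), Cx3cr1 by 0.83 (SE 0.18) and Lyve1 by 1.26 (SE 0.35), with limma adjusted p of 0.0158, 0.0121, 0.0195 and 0.037. Cd163 and Cd14 did not pass, at 0.19 (SE 0.17) and -0.22 (SE 0.15), with limma adjusted p of 0.402 and 0.278.

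This fit has 2 control libraries, of which replicate 2 is the female one, and the choice to leave out control replicate 1 was made with its low marker level known. The 6 genes also passed as lower without control replicate 1 and icKO replicate 3, the libraries richest in muscle transcripts. In that fit 38.0% of all tested genes passed and 21.4% were lower. Its controls still held more muscle transcripts than its icKO libraries, with summed muscle markers of 174 and 235 FPKM against 5.23 and 16.0 FPKM. This fit and the next leave out the same low control, so neither is separate support for the 6 falls. With no filter and without control replicate 1, where 14.1% of genes passed (8.42% lower and 5.69% higher), 4 of the 6 passed, namely Adgre1, Csf1r, Cd68 and Mrc1, as Lyve1 and Cx3cr1 had adjusted p of 0.115 and 0.0661. In that fit Trem2 differed by 0.24 (SE 0.10) and Aif1 by -0.64 (SE 0.20), with limma adjusted p of 0.212 and 0.117. Leaving out any other single library gave no call among the members, except that Lyve1 fell without icKO replicate 3 (difference -1.34, limma adjusted p = 0.0157).

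**Figure D2:**
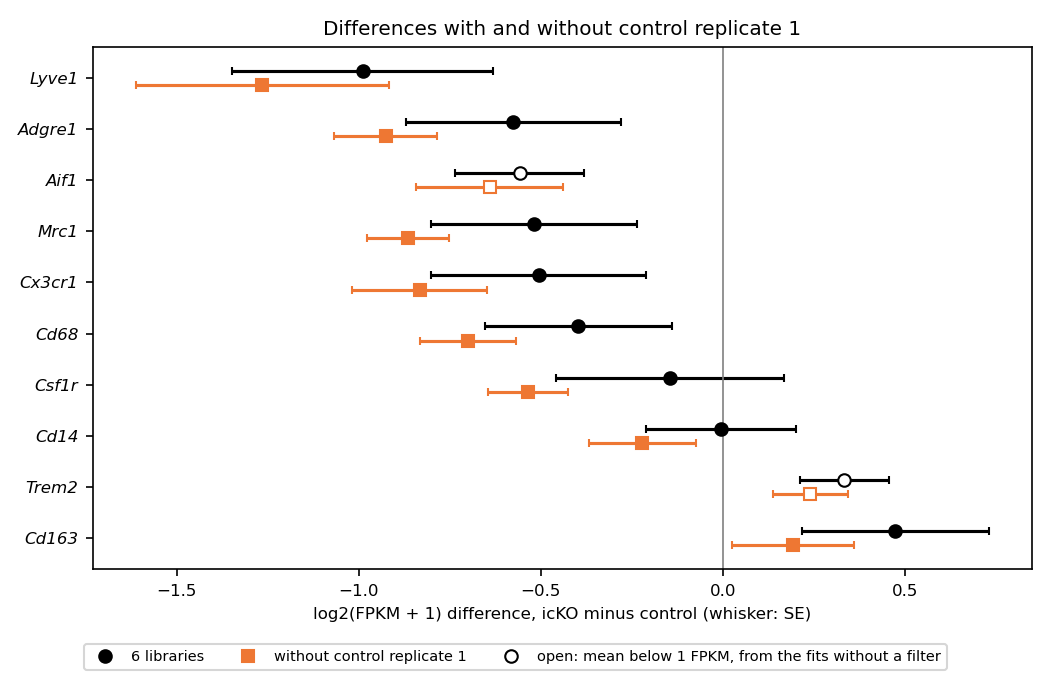
Differences between icKO and control nerves on the log2(FPKM + 1) scale (horizontal axis) for the 10 markers, from all 6 libraries (circles) and without control replicate 1 (squares), with the SE as whisker and open symbols for Trem2 and Aif1, from the fits with no filter. Without that library 8 genes lie below 0, while Cd163 and Trem2 stay above it.

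Control replicate 1 was low in more than macrophage transcripts. Of 15 core tissue macrophage genes, 14 were lower there than in both other controls, as were all 12 genes of resident macrophages and all 6 fibroblast markers. The median ratio to the other 2 controls was 0.53, 0.48 and 0.55 in these lists. Skeletal muscle markers had a median ratio of 4.30 and Schwann cell markers of 1.04. Fibroblast markers summed to 915 FPKM in control replicate 1, to 1811 and 1572 FPKM in the other controls, and to 768 to 791 FPKM in icKO libraries. What share these tissue components have in the marker levels was not tested.

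**Figure D3:**
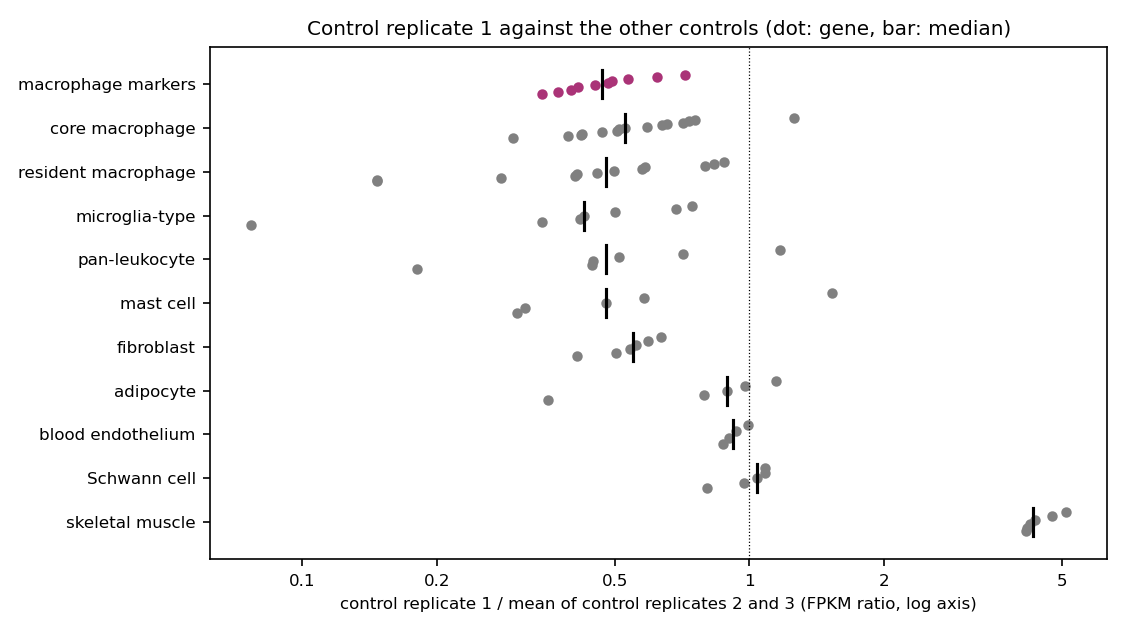
FPKM in control replicate 1 divided by the mean of control replicates 2 and 3 (horizontal log axis) for the genes of 11 lists (dots), with the median of each list as a bar and a dotted line at 1. The 10 macrophage markers lie between 0.34 and 0.72, near fibroblast and leukocyte genes, and muscle genes lie above 4.

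The proportions of the markers to each other are described here with no test. They did not overlap between the groups for 5 of the 10 genes. By level, 57.2% of all tested genes did not overlap, while the groups overlapped for each of the 8 tested markers. Levels and proportions are different measures, and no share over all genes was computed for proportions. Each gene was expressed as its percentage of the summed FPKM of the 10, a sum of 23.2, 54.1 and 49.8 FPKM in controls against 31.7, 31.0 and 32.5 FPKM in icKO nerves. Cd163 made up 8.37%, 7.07% and 9.59% of the sum in control and 15.6%, 19.8% and 12.8% in icKO libraries. Trem2 made up 2.37%, 1.84% and 1.55% in control and 3.66%, 3.84% and 4.03% in icKO libraries. The shares of both genes were higher in every icKO library than in every control. Mrc1 made up 12.6%, 14.0% and 13.2% in control and 12.02%, 10.5% and 9.94% in icKO libraries, and Adgre1 5.72%, 8.18% and 6.58% against 5.55%, 4.75% and 4.26%, both lower in every icKO library. The Csf1r share was 20.0% to 22.7% in control and 22.7% to 27.2% in icKO libraries, also without overlap, while those of Cd68, Lyve1, Cx3cr1, Cd14 and Aif1 overlapped. Shares of a sum are tied to each other, so a larger share of Cd163 lowers the others. As a ratio to Csf1r in the same library, Cd163 was 0.32 to 0.42 in control and 0.55 to 0.87 in icKO libraries, and Mrc1 0.58 to 0.63 and 0.42 to 0.46. By this ratio Trem2 was also higher, and Adgre1, Lyve1, Cx3cr1 and Aif1 also lower, in every icKO library than in every control. The ratios of Cd68 and Cd14 overlapped. Whether Lyve1, Cx3cr1 and Aif1 overlapped thus depended on the denominator.

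**Figure D4:**
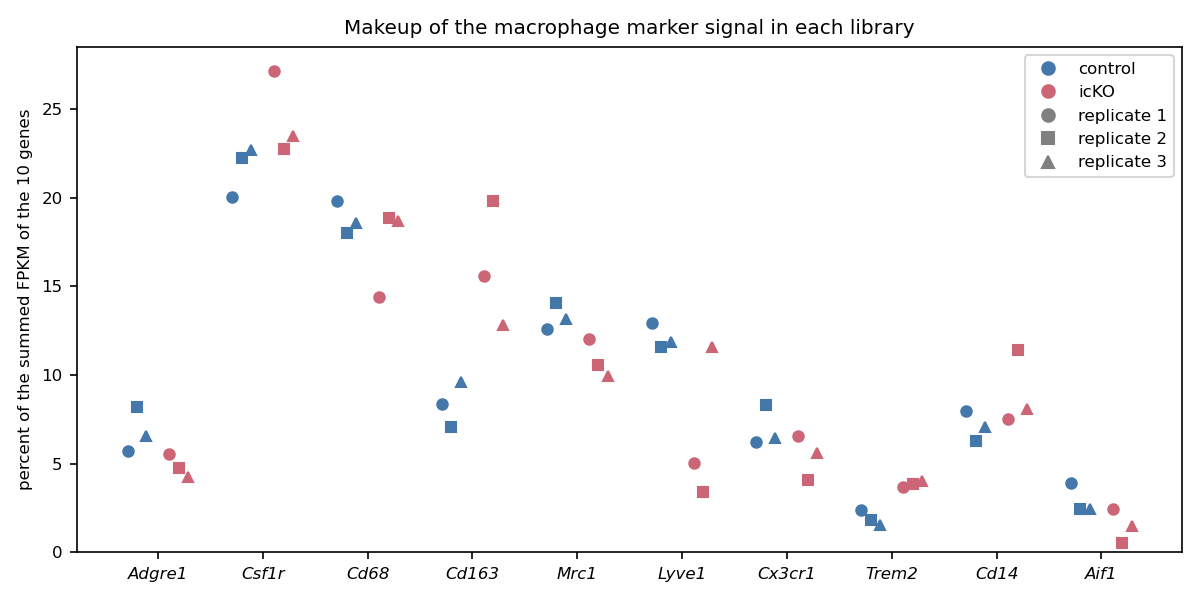
Share of each marker in the summed FPKM of the 10 (vertical axis, percent, from 0) in every library, with control in blue, icKO in red and shapes for the replicate number. Cd163 and Trem2 are higher and Mrc1 and Adgre1 lower in all 3 icKO libraries than in all 3 controls.

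The start regions of Mrc1, Trem2 and Cd163 are printed. Of the 5 markers whose shares did not overlap, these 3 were in the set of RefSeq start regions used here. That set did not hold Csf1r and Adgre1. Macrophage genes are known for binding of the lineage factor PU.1 (gene Spi1) to purine-rich sites near their start. The sequences are the 250 bases before the RefSeq transcription start in build GRCm38.p6, 5′ to 3′ on the gene's strand, at chr2:14229164-14229413 (plus strand), chr17:48346151-48346400 (plus strand) and chr6:124304401-124304650 (plus strand). Capitals mark the letters GAGGAA, a core of such sites, or their reverse complement TTCCTC, the only motif searched.
Mrc1: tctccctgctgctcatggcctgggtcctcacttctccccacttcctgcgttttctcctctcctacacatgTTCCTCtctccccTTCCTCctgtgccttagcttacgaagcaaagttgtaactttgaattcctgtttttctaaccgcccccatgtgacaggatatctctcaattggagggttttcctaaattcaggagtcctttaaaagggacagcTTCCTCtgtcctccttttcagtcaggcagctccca
Trem2: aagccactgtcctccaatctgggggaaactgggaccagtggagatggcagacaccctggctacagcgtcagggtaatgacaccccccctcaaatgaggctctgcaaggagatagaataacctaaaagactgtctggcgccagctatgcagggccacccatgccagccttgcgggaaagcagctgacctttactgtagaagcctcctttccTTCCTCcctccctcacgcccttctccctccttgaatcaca
Cd163: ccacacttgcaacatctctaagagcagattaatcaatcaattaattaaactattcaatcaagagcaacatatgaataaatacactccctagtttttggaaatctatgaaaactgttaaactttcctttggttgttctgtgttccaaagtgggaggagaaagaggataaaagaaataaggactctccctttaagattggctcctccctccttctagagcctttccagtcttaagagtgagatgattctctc
The Mrc1 window holds 3 matches, the Trem2 window 1 and the Cd163 window 0. Of the 6 markers in the set of start regions used here, 4 held a match, as did 23.3% of 32851 windows of that length. A match is a run of letters and not a measured binding site. Spi1 itself measured 1.301, 3.11 and 2.15 FPKM in controls against 1.54, 1.59 and 1.997 FPKM in icKO nerves, where control replicate 1 was again the lowest (log2 difference -0.20, SE 0.21, limma adjusted p = 0.477).

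Ligands and partners of the markers differed in both directions. Of 12 such genes 10 were tested, of which 2 rose, 2 fell and 6 did not pass, with a median difference of -0.01, beside 20.8% of all tested genes higher and 22.1% lower. Tyrobp, the signalling adaptor of TREM2, measured 5.51, 14.4 and 12.9 FPKM in controls against 7.33, 7.19 and 7.72 FPKM in icKO nerves, with the icKO libraries between control replicate 1 and the other controls, as for Csf1r. It did not pass with all libraries (limma adjusted p = 0.32) and fell without control replicate 1 (difference -0.80, SE 0.09, limma adjusted p = 0.00365). The growth factors of CSF1R did not pass the test. Il34 measured 43.0, 35.9 and 37.3 FPKM in controls against 43.3, 39.4 and 40.4 FPKM in icKO nerves (limma adjusted p = 0.494), and Csf1 was at 3.59 to 8.54 FPKM over all libraries (limma adjusted p = 0.711). Cx3cl1, the fractalkine ligand of CX3CR1, was at 1.43, 1.72 and 1.61 FPKM and at 1.35, 1.42 and 1.37 FPKM, on about 11 to 17 fragments (limma adjusted p = 0.323).

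Apoe, a lipid carrier that TREM2 binds, rose from 134, 149 and 129 FPKM in controls to 326, 235 and 206 FPKM in icKO libraries (log2 difference 0.87, SE 0.17, limma adjusted p = 0.00857). Hp, the haptoglobin whose haemoglobin complex CD163 takes up, rose from 10.7, 11.1 and 12.2 FPKM to 18.5, 22.4 and 30.3 FPKM (0.98, SE 0.17, limma adjusted p = 0.00534). Both rose in 18 of 19 fits, all but the one with no filter and without control replicate 1, and both are also made by cells other than macrophages. Hmox1, the haem-degrading enzyme downstream of CD163, was at 24.1, 27.4 and 27.1 FPKM and at 17.4, 14.1 and 23.0 FPKM, a fall with a limma adjusted p of 0.0427 that passed in only 10 of 19 fits. Around CD14, the TLR4 partner Ly96 was at 2.94, 2.64 and 2.52 FPKM and at 0.536, 1.21 and 1.73 FPKM (difference -0.81, SE 0.21, limma adjusted p = 0.0196), on about 5 to 29 fragments. The Ly96 fall did not pass without control replicate 1 (limma adjusted p = 0.0567). Tlr4 and the lipopolysaccharide-binding protein gene Lbp did not pass (limma adjusted p = 0.442 and 0.165). Syk and Plcg2, kinase and phospholipase of the TREM2 path, were under the filter, at 0.576 to 1.10 FPKM and 0.623 to 1.51 FPKM.

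Of 10 tested genes of resident perivascular and epineurial macrophages 6 fell and 0 rose in the 6 libraries, with a median difference of -0.74, beside 22.1% of all tested genes lower. Mgl2, a lectin of resident macrophages and dendritic cells, measured 2.55, 6.57 and 5.98 FPKM in controls against 0.261, 0.125 and 0.417 FPKM in icKO nerves (difference -2.18, SE 0.29, limma adjusted p = 0.00202). Pf4, a chemokine also of platelets, was at 9.95, 12.9 and 12.1 FPKM and at 3.16, 2.30 and 3.02 FPKM (difference -1.73, SE 0.13, limma adjusted p = 0.000542). In both genes every icKO library lay below control replicate 1. The other 4 that fell, named after their values were seen, were the folate receptor gene Folr2 (means 3.01 and 0.48 FPKM), Cbr2 (9.74 and 4.10 FPKM), F13a1 (5.07 and 2.32 FPKM) and Ltc4s (3.43 and 1.84 FPKM). Mgl2 and Folr2 rest on about 4 to 215 and 7 to 72 fragments per library. With icKO means under 1 FPKM, both passed the filter through their control levels. Fits that left out a single library gave 4 to 7 falls in this list and 7 without control replicate 1. F13a1 passed in only 11 of 18 fits. Clec10a, a near relative of Mgl2 in sequence with which reads may be shared, was at 0.974, 1.86 and 1.47 FPKM and at 1.42, 1.23 and 2.28 FPKM.

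Of 13 tested core macrophage genes, 1 rose, 3 fell and 9 did not pass with all libraries, and 9 fell without control replicate 1. The count with all libraries is near the share over all tested genes, of which 22.1% were lower and 20.8% higher, while 19.5% were lower without control replicate 1. C1qa, a chain of the complement starter C1q made by tissue macrophages, measured 20.6, 41.4 and 36.6 FPKM in controls against 24.4, 24.1 and 23.9 FPKM in icKO nerves. Fcrls, an Fc receptor-like protein, fell from 2.28, 7.31 and 4.33 FPKM to 1.22, 0.255 and 0.966 FPKM (difference -1.58, SE 0.36, limma adjusted p = 0.0141). Its values rest on about 7 to 224 fragments per library, and it passed the filter through its control levels. The gene that rose was Mertk, a receptor for dying cells, from 14.9 ± 2.11 to 43.2 ± 7.31 FPKM (SD, n = 3 each, limma adjusted p = 0.00096). Unlike the other 14 core genes, Mertk was not low in control replicate 1, at 17.2 FPKM there against 13.2 and 14.2 FPKM. Which cells its transcripts came from was not tested. Of 5 tested microglia-type genes, 2 fell, the purine receptor gene P2ry12 (3.05, 4.22 and 4.01 FPKM to 1.91, 1.32 and 2.21 FPKM) and Olfml3. Among 6 tested transcription factors, Maf and Nr1h3 fell and Cebpb rose, all 3 also expressed outside macrophages. These counts of 2 in 5 and 2 in 6 lower stand beside the same 22.1% of all tested genes. Maf was at 40.6 ± 1.70 and 19.9 ± 1.86 FPKM and Nr1h3 at 10.3 ± 0.09 and 4.54 ± 0.55 FPKM (SD, n = 3 each), with limma adjusted p of 0.000765 and 0.000752. Cebpb was at 5.53 ± 0.70 and 15.0 ± 6.74 FPKM (SD, n = 3 each, limma adjusted p = 0.0124).

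**Figure D5:**
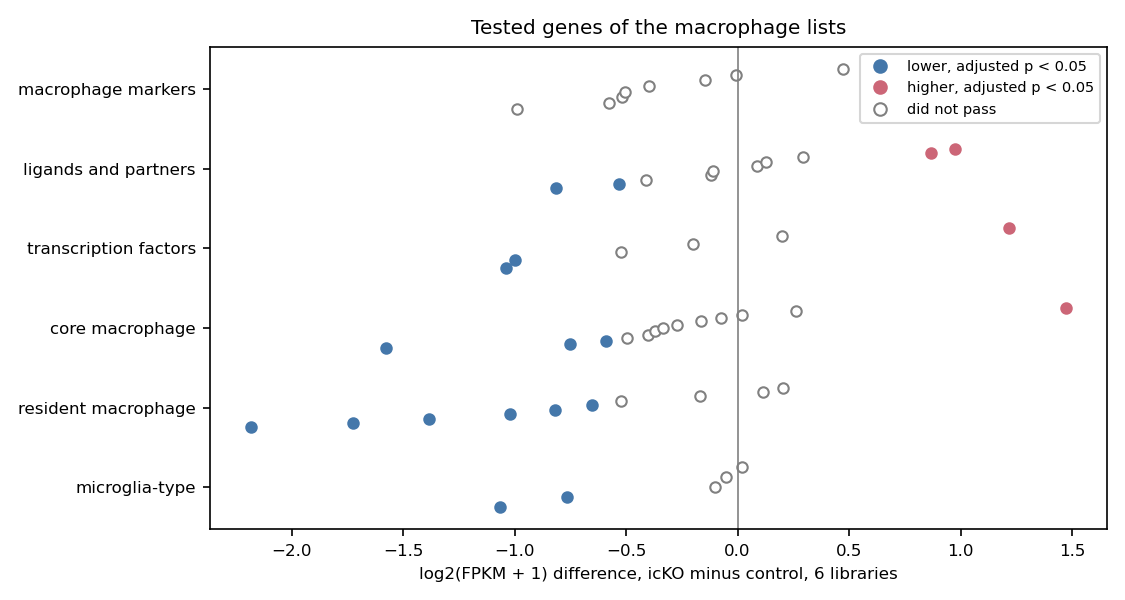
Differences between icKO and control nerves on the log2(FPKM + 1) scale (horizontal axis) over all 6 libraries for the tested genes of 6 macrophage lists, filled where the adjusted p was under 0.05 (blue lower, red higher) and open otherwise. The 8 tested markers are all open, while 6 of 10 resident macrophage genes are filled on the lower side.

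Of 6 pan-leukocyte genes 4 passed the filter, and 1 of these fell, beside 22.1% of all tested genes. Ptprc, the CD45 gene, measured 0.251, 0.606 and 0.520 FPKM in controls against 0.177, 0.214 and 0.204 FPKM in icKO nerves, under the filter and without overlap of the groups, and is named after its values were seen. Lcp1, an actin-bundling protein of leukocytes, fell from 1.10, 2.57 and 2.36 FPKM to 1, 0.725 and 0.502 FPKM (limma adjusted p = 0.0327), on about 7 to 36 fragments, and did so in 12 of 18 fits. Without control replicate 1 Coro1a, named after its values were seen, fell as well (2.04, 4.04 and 3.95 FPKM against 1.80, 1.74 and 2.12 FPKM, limma adjusted p = 0.00471), and 3 of the 4 fell without both muscle-rich libraries, where 21.4% of all tested genes were lower.

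The 5 tested genes most like the markers were found by the Pearson correlation, over the 6 libraries, with the mean of the 8 tested members' centred log2 levels. They were Tyrobp (r = 0.999), Wdfy1 (0.995), Pfkp (0.995), Fmnl1 (0.992) and C1qa (0.992). These values describe 6 libraries that share the low control replicate 1, and carry no test.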

How the data were processed

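The deposited table holds FPKM values, made by the authors, of 55335 Ensembl gene IDs in 6 libraries, each column matched to a sample by name. STAR, StringTie 1.3.1c, FastQC 0.11.2, build GRCm39 and DESeq2 1.16.1 are named by the submitters' processing notes, with no role or order. No source used here states the annotation release, the strand setting or the treatment of multi-mapped reads. FPKM depends on the other transcripts of a library, and the table holds no counts, so no count model was used. Symbols came from a table of gene IDs that matched 55154 IDs and left 181 without a symbol.

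The main filter kept 12860 genes whose mean over the 6 libraries was 1 FPKM or more. On log2(FPKM + 1), limma 3.58.1 (R 4.3.3) with a variance trend gave two-sided p-values, which were Benjamini-Hochberg adjusted over the kept genes and called under 0.05. Such a difference understates the change of low genes. The depth was read from genes with 1 annotated transcript (34186), as the most frequent product of transcript length and FPKM below 0.3. Fragments per gene are that depth times FPKM and the median coding transcript length in GENCODE M21, and are approximate. Exon overlaps came from the same annotation, which is of build GRCm38. This test was run on simulated data for icKO against control over 12860 genes with 200 changed. It recovered 75% of log2 changes of 1 and 96% of changes of 2, with 12 false calls. The simulated noise was independent between genes, while control replicate 1 was low across several gene lists. These recoveries are therefore not those of the markers.

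Named genes were all 10 markers, all 12 ligands and partners, the 2 smallest adjusted p in each direction of every other list (the 2 highest genes where none passed), and the 5 genes most like the markers. Some genes that this rule names are not reported here. The markers and lists were chosen with earlier results of these data known. The alternatives were quantile, median-of-ratios and TPM scaling, a pseudocount of 0.1, no filter or a mean of 5 FPKM, no variance trend, array weights, a replicate block, a muscle covariate (mean log2 level of 6 muscle markers) and leaving out libraries. The fit with no filter and without control replicate 1 was added after the data were seen.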

Additional observations from a re-analysis of the deposited data

How the results depend on the processing

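With all 6 libraries, 0 of the tested markers passed and 5516 genes did, 2846 of them lower in icKO nerves. The count of markers that passed, all lower, was 1 with array weights (Lyve1), 6 without the 2 muscle-rich libraries, 4 with no filter and without control replicate 1, and 0 to 6 when single libraries were left out, with the 6 arising without control replicate 1. It was 0 under the other scalings, filters, variance models, the pseudocount of 0.1 and the muscle covariate. A filter at a mean of 5 FPKM, which tests fewer genes, gave 3308 calls, 1612 of them lower. Leaving out single libraries gave 3750 to 5458 calls, 1912 to 2900 of them lower. The median difference of the tested markers was -0.24 to -0.77 over those fits and stayed negative in every alternative.

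The difference of Cd14 turned to 0.021 with quantile scaling, 0.0083 with median-of-ratios scaling, 0.00043 with a pseudocount of 0.1, 0.09 and 0.11 without control replicates 2 and 3, and 0.080 and 0.030 without icKO replicates 1 and 3, in a range of -0.22 to 0.11 over single libraries left out. Csf1r turned to 0.069 and 0.028 without control replicates 2 and 3, with a lowest value of -0.53 without control replicate 1. Csf1 turned to -0.16 without icKO replicate 3, with 0.37 without icKO replicate 2 as the highest value over single libraries left out, and to -0.24 without both muscle-rich libraries. Acta1 and Tnnt3 turned to 1.36 and 0.41 with the muscle covariate, which holds both genes. The cause of the other turns was not tested.

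Same-numbered libraries did not deviate together from their group means, with correlations of -0.10, 0.04 and -0.05. With 3 libraries per group, these values cannot exclude that the numbers pair samples. With the replicate block 4596 genes passed, 2324 of them lower, and 0 of the markers. Markers near 1 FPKM rest on few fragments, which limits Trem2 and Aif1 most.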

Other observations

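Neutrophil granule genes were seen mainly in icKO replicate 3, where Ngp was at 2.65 FPKM and S100a9 at 3.12 FPKM, against at most 0.14 and 0.54 FPKM in the other 5 libraries. The summed level of 6 neutrophil markers was 9.32 FPKM in that library and 0.379 to 1.38 FPKM in the others. The 10 macrophage markers summed to 32.5 FPKM there, and to 31.7 and 31.0 FPKM in the other icKO libraries. Some other leukocyte genes under the filter were lowest among the controls in replicate 1 and lower in every icKO library. Named after their values were seen, these include the monocyte receptor gene Ccr2 (0.530, 1.80 and 1.25 FPKM against 0.337, 0.373 and 0.313 FPKM) and the integrin gene Itgam (0.295, 1.81 and 1.46 FPKM against 0.125, 0.107 and 0.155 FPKM). In the fit with no filter their limma adjusted p was 0.0911 and 0.0892, and 0.0218 and 0.0117 without control replicate 1. Ly6c2, another monocyte gene, went the other way, at 0.451, 0.454 and 0.406 FPKM in controls against 0.735, 0.597 and 0.514 FPKM in icKO nerves. It rests on about 5 to 8 fragments (limma adjusted p = 0.199 with no filter). Of the 13 monocyte and injury genes, 4 were lower and 2 higher in every icKO library than in every control. Among all tested genes, 28.9% were lower and 28.4% higher in this way, so the count does not set the list apart. The share of all genes under the filter with such a pattern was not counted.

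The counts that follow stand beside 22.1% of all tested genes lower and 20.8% higher with all libraries, 19.5% lower without control replicate 1 and 21.4% lower without the 2 muscle-rich libraries. Mast cell markers resembled the macrophage markers in control replicate 1, where 4 of 5 were below both other controls. Kit, a receptor of mast cells and of other cells, was the exception and rose from 1.20 ± 0.33 to 4.74 ± 1.603 FPKM (SD, n = 3 each, limma, Benjamini-Hochberg adjusted p = 0.00501), while the protease genes Cma1, Mcpt4, Tpsb2 and Cpa3 did not pass with all libraries and 3 of them fell without control replicate 1. Of the monocyte and injury list, 5 of 13 genes were tested. Spp1 fell from 175 ± 32.3 to 39.9 ± 10.1 FPKM and Lgals3 rose from 12.04 ± 3.26 to 30.3 ± 6.31 FPKM (SD, n = 3 each, limma adjusted p = 0.00102 and 0.00474), both also expressed by Schwann cells or fibroblasts. The adipocyte list fell in all 5 members tested, and in 4 without control replicate 1, with a sum of 398 to 501 FPKM in control and 73.1 to 128 FPKM in icKO libraries. The fibroblast list had 3 falls, led by the matrix protein Lum (205 to 28.8 FPKM) and Cd34 (17.3 to 7.79 FPKM), and 1 rise, Pdgfra (12.1 to 18.6 FPKM), among 6 tested, with 5 falls without control replicate 1. Of 4 blood endothelial genes Kdr and Tie1 fell and Pecam1 rose, and of the Schwann cell genes S100b and Prx fell. None of the 6 muscle genes passed with all libraries, and 6 fell without the 2 muscle-rich libraries. B cell markers summed to at most 0.654 FPKM and dendritic cell markers to at most 3.44 FPKM in any library. With the main filter 0 and 1 of their genes were tested, with 0 calls. With no filter the dendritic cell gene Flt3 rose, from a control mean of 0.0149 to an icKO mean of 0.149 FPKM. This rests on about 1 to 11 fragments (limma adjusted p = 0.00416, and 0.0167 without control replicate 1). Cd209a went the other way, from 0.188 to 0.0236 FPKM (limma adjusted p = 0.0736 and 0.0452).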
